A study of Homo sapiens with 4 samples.

Results

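The 81 genes described here encode proteins of the cytosolic ribosome, 33 of the small subunit and 48 of the large, out of 19238 genes in the count table. They were chosen by symbol alone: RPL or RPS followed by a number and an optional letter or X, with RPLP0, RPLP1, RPLP2 and RPSA added and RPS6K kinases and other names left out. The cells came from 4 human melanoma lines, each sequenced as 1 library by droplet 3' RNA sequencing, in which each captured RNA molecule is tagged by cell and by a unique molecular identifier, so that molecules (UMIs) are counted. The lines were 113/6-4L, a WM239A subclone labelled for lung metastasis, the WM239A subclones 131/4-5B1 and 131/4-5B2, both labelled for brain metastasis, and WM239A itself, labelled poorly metastatic. Cell names end in a number from 1 to 4, and no source used here links a number to a line. The cells are therefore given as barcode sets 1 to 4, in that order, and no line is set against another. Each set is 1 sample without replicates, so no test was run, and all intervals are 95% intervals that cover counting error only.

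A cytosolic ribosome holds 1 copy of nearly every ribosomal protein, and proteins made in excess of their partners are degraded. Most of these genes carry a terminal oligopyrimidine tract, an unbroken run of C and T that begins at the first transcribed base, through which mTOR signalling controls their translation together. Several have paralogues, such as RPL22L1 for RPL22 and RPS27L for RPS27, whose proteins can take the same place in the ribosome. RPS27L is also known as a gene induced by p53, and RPL39L is best known from testis.

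The bases around the annotated transcription start are shown for members the results turn on, to let the tract be seen. RPS28, RPL36 and RPL28 lie on chromosome 19, where the members share a pattern, RPL21, RPS24, RPL22 and RPS27 are the other members with wide differences, RPL12 and RPL9 are among the steadiest, and RPL22L1 is the RPL22 paralogue. The sequences come from RefSeq (GRCh38.p14) and read 5′ to 3′ along the gene, with 10 bases before the start and 20 from it, so the start is base 11. Capitals mark the longest unbroken run of C and T.
RPS28 (chr19:8321486-8321515, plus strand): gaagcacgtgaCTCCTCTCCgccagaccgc
RPL36 (chr19:5690285-5690314, plus strand): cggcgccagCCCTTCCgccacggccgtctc
RPL28 (chr19:55385922-55385951, plus strand): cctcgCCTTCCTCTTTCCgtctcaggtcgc
RPL21 (chr13:27251548-27251577, plus strand): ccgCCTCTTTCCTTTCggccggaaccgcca
RPS24 (chr10:78033853-78033882, plus strand): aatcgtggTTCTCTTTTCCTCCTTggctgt
RPL22 (chr1:6199576-6199605, minus strand): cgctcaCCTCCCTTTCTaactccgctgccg
RPS27 (chr1:153990752-153990781, plus strand): cgctttcgCTCCTTTCCggcggtgacgacc
RPL12 (chr9:127451387-127451416, minus strand): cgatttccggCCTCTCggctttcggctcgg
RPL9 (chr4:39458903-39458932, minus strand): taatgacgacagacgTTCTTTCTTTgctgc
RPL22L1 (chr3:170870176-170870205, minus strand): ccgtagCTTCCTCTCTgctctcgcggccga

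Of the 81 members, 63 had an entry in the RefSeq start table, with 78 starts between them. A C at the start followed by 4 bases that are each C or T, read on the transcript strand only, stood at 46 of those starts (59.0%), against 3.95% of 35038 starts of other genes and 4.07% of all starts. In the printed windows the run of RPS28 begins 1 base after the annotated start and that of RPL9 a few bases further on, so neither was counted. Of the steady members, RPL12 had such a start. The letters say nothing of whether the tract is used.

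Together the members took up a large and steady part of all RNA molecules counted. Their share of UMIs was 22.96% in set 1 (22.95% to 22.97%), 23.16% in set 2 (23.15% to 23.17%), 24.23% in set 3 (24.22% to 24.24%) and 23.48% in set 4 (23.47% to 23.49%). The sets lay closer together than the middle cells of any one set. The median cell had a share of 22.8%, 22.9%, 23.7% and 23.1%, and the interquartile range spanned 3.54, 3.21, 3.78 and 3.35 percentage points. Small-subunit genes made up 41.8% of the members' UMIs in set 1 and 43.3%, 43.0% and 43.1% in sets 2 to 4.

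The sets held 2121, 1779, 2140 and 2133 cells with 71182648 to 71915542 UMIs in total and 33152.5 to 41131 UMIs in the median cell, and 39 barcodes occurred in more than 1 set. Melanocytic markers were present, with a summed level of 5081, 5501, 8558 and 7949 UMIs per 1000000 UMIs of the set (CPM). Of the markers of other cells, the 3 immune genes in the table summed to at most 1.04 CPM, the 2 endothelial genes to at most 2.98 CPM and the 5 fibroblast genes to 14.0, 2.57, 0.504 and 0.702 CPM, mostly LUM in sets 1 and 2. PTPRC, the defining immune marker, had 3, 2, 0 and 3 UMIs. The 4 epithelial genes summed to 117 to 178 CPM, nearly all KRT18 and KRT8. The fibroblast list was highest in set 1, and the part of these markers in the results below was not tested.

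Single members differed widely in level. The values below are 3' UMI counts, which do not grow with transcript length, and they order captured 3' ends, since many members have near-identical processed copies in the genome and no source used here says how reads matching several places were handled. RPS2, a small-subunit protein at the mRNA entry site, had the highest level, at 12014, 12006, 12342 and 11992 CPM, and its sets barely differed. RPS18 followed at 9669, 8976, 9367 and 8976 CPM. RPL19 stood at 7314, 6582, 6753 and 6700 CPM. RPL41, the smallest ribosomal protein, stood at 6560, 6509, 6876 and 6379 CPM, close to RPLP1. In all, 9 members had a mean over 5000 CPM, 60 lay between 1000 and 5000 CPM, and 12 were lower. The 10 most abundant members held 29.5% of all member UMIs.

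The stalk of the large subunit, which recruits the elongation factors, is built from RPLP0, RPLP1 and RPLP2. RPLP0 stood at 2767, 3165, 3218 and 3113 CPM, RPLP1 at 6087, 6384, 7084 and 6755 CPM, and RPLP2 at 3474, 3622, 3746 and 3748 CPM. All 3 stalk genes were lowest in set 1, by at most 1.16-fold. RPSA, a small-subunit protein also known as a laminin receptor precursor, stood at 1987, 1943, 2120 and 2065 CPM and spanned 1.09-fold.

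At the low end, RPL3L, a copy of RPL3 known from striated muscle, had 2, 1, 1 and 1 UMIs, and no fold is given for it. It was 1 of 3 members that never reached 10 CPM, and the other 78 did. The lowest of those 78 was RPL17, at 116, 149, 121 and 143 CPM, and a readthrough entry that contains it had 4 to 7 UMIs per set. RPL36A stood at 152, 145, 138 and 121 CPM.

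Fewer of the members than of genes in general differed between the sets. For each gene, the span compares its highest with its lowest set as log2(CPM + 1), a scale on which differences of low genes come out too small. Of the 78 members that reached 10 CPM in a set, 23 (29.5%) spanned at least 25%, meaning that the highest set lay at least 25% above the lowest, whereas 52.1% of all 7421 genes at that level did. Among genes with a mean of at least 500 CPM, 19 of 73 members (26.0%) spanned 25%, and 43.7% of all 279 such genes. At 1.5-fold the count was 3 of 78 members (3.85%), against 17.3% of all genes and 12.2% of the genes over 500 CPM. No member spanned 2-fold, against 5.85% and 3.94% of these backgrounds. The median span was 1.18-fold over the members, 1.26-fold over all genes and 1.249-fold over the 206 other genes with at least 500 CPM. The subunits were alike, with 10 of 31 small-subunit members and 13 of 47 large-subunit members past 25%. Taken as shares of the members' own UMIs, which removes a shift common to all of them, 21 members spanned 25%.

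The steadiest members spanned only a few percent, and 17 of 78 (21.8%) spanned less than 1.1-fold, as did 9% of all genes tested. Among genes with a mean of at least 500 CPM it was 17 of 73 members and 15.8% of all. RPL12, a protein at the base of the stalk, stood at 3788, 3770, 3818 and 3763 CPM. RPL9 stood at 2016, 1984, 2023 and 1953 CPM. Near the 25% line, RPL36A (1.26-fold) lay just inside it, with RPL34 (1.27-fold) next, and RPL18 (1.249-fold) and RPS25 (1.24-fold) lay just outside.

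The member with the widest span was RPS28, a small-subunit protein at the mRNA exit, at 2104, 2783, 3355 and 3211 CPM. Set 3 was 1.59-fold above set 1 (1.58 to 1.61), and sets 3 and 4 were both above set 2. RPL21 stood at 1056, 1679, 1385 and 1328 CPM and RPS24, a gene mutated in Diamond-Blackfan anaemia, at 354, 558, 450.4 and 419 CPM. Both were lowest in set 1 and highest in set 2, 1.59-fold (1.57 to 1.60) and 1.58-fold (1.55 to 1.60) apart. RPL22 stood at 465, 687, 586 and 575 CPM and RPS27 at 1259, 1786, 1620 and 1567 CPM, in the same order of sets. RPL36 stood at 1597, 2009, 2394 and 2345 CPM and RPL28 at 2490, 2942, 3541 and 3394 CPM. Both had the order of RPS28, with set 1 lowest and set 3 highest. RPL7 stood at 3868, 2816, 2944 and 2710 CPM and RPL30 at 2318, 1670, 1669 and 1635 CPM, and in both set 1 was the highest and the other 3 sets were close together. The RPL7 sets were up to 1.43-fold apart (1.42 to 1.44) and the RPL30 sets up to 1.42-fold (1.41 to 1.43).

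Set 1 was an extreme for most members. It was the lowest set for 35 of 78 members (44.9%) and for 27.9% of all genes, and the highest for 30 members (38.5%) and 44.9% of all genes. Set 2 was the lowest for 18 members (23.1%) and 28.7% of all genes. Set 3 was the highest for 28 members (35.9%) and 18.2% of all genes, and set 4 for 2 members and 17.7% of all genes. On several chromosomes the members went the same way in set 1, a pattern found after the values were seen. Values below are log2(CPM + 1) less the median of the same gene's 4 sets.

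**Figure D1:**
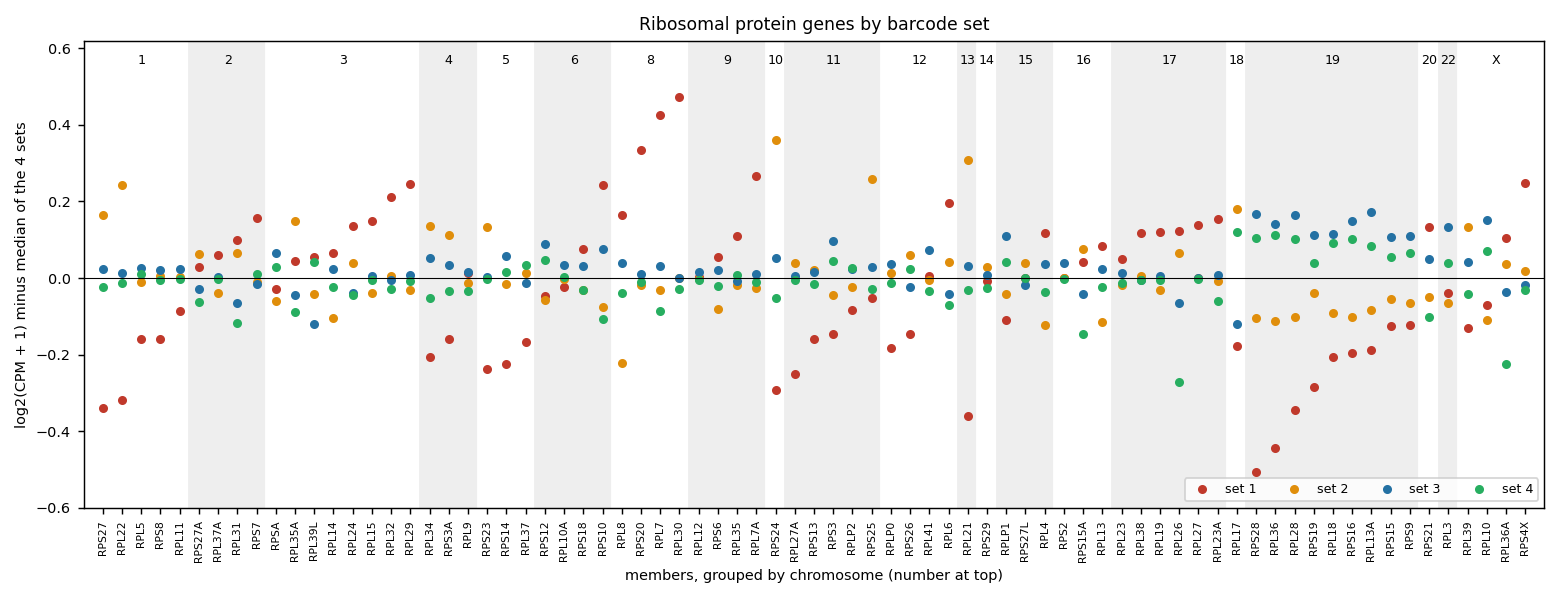
Each column is 1 of 75 members, grouped by chromosome (number at the top), and each point is 1 barcode set, as log2(CPM + 1) minus the median of the 4 sets. All 9 chromosome 19 members drawn have their lowest point in set 1, and all 4 chromosome 8 members have their highest there.

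All 12 members on chromosome 19, among them RPS28, RPL36, RPL28, RPS19, RPL18, RPS16, RPL13A, RPS15 and RPS9, were lowest in set 1, as were 54.2% of all genes tested on that chromosome. Their median was -0.26, -0.10, 0.15 and 0.10 in sets 1 to 4, and that of the 412 other genes of chromosome 19 was -0.13, -0.10, 0.09 and 0.09. Both groups thus kept the same order of sets, and in set 1 the members lay lower. The 12 other chromosome 19 genes with at least 500 CPM had a median of -0.14 in set 1. Of the 12 members, 9 spanned 25%, beside 59.9% of all genes tested on the chromosome. RPL13A, which also serves in silencing of inflammatory mRNAs, stood at 5664, 6094, 7278 and 6833 CPM, and RPS19, the gene most often mutated in Diamond-Blackfan anaemia, at 4634, 5497, 6112 and 5807 CPM.

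All 4 members on chromosome 8 (RPL7, RPL30, RPS20 and RPL8) were highest in set 1, as were 81.1% of all genes tested there. Their median in set 1 was 0.38, that of the 250 other chromosome 8 genes was 0.31, and that of the 8 among these with at least 500 CPM was 0.06. All 4 members spanned 25%, beside 83.1% of all genes tested on the chromosome. RPS20 stood at 2591, 2028, 2072 and 2039 CPM and RPL8 at 3141, 2401, 2880 and 2724 CPM, and RPL8 was the one of the 4 whose set 2 lay clearly below sets 3 and 4.

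On some other chromosomes the members also lay mostly on the same side of 0 in set 1 as the median of the other genes. Every member on chromosome 1 (5 of 5), chromosome 5 (3 of 3) and chromosome 11 (5 of 5) was lowest in set 1, beside 53.4%, 56.3% and 45.5% of all genes tested on them. Every member on chromosome 17 (6 of 6) was highest in set 1, beside 58.9% of its genes, and so were 6 of 8 on chromosome 3, beside 66.4%. RPS24 and RPL21 are the lone members tested on chromosomes 10 and 13, where 77.3% and 78.8% of the genes were lowest in set 1. On others they did not. In set 1 the 4 members on chromosome 12 had a median of -0.07 and the other genes there 0.12. The lone members tested on chromosomes 14 and 22 lay at -0.01 and -0.04, against 0.09 and 0.11 for the other genes.

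Set against the 10 nearest genes tested on either side, other members left out, the members' values in set 1 had a Pearson r of 0.77 with the median of those neighbours (n = 78 members), with 66 of 78 (84.6%) on the same side of 0. The same r was 0.30 over 7160 other genes and 0.23 over 195 other genes with at least 500 CPM, of which 72.6% and 68.7% lay on the same side. In sets 2 to 4 it was 0.52, 0.64 and 0.58 over the members and 0.20, 0.21 and 0.22 over the other genes. Over the 195 with at least 500 CPM it was 0.23, 0.33 and 0.11 in those sets. On the same side in those sets were 57, 38 and 46 members (73.1%, 48.7% and 59.0%) and 57.9%, 60.9% and 60.4% of the other genes, so in sets 3 and 4 the members' share was not above that of other genes. These are descriptions, since all genes share the same 4 libraries and adjacent genes share neighbours. The members' own spread in set 1 was small (standard deviation 0.20, against 0.42 over other genes) and was 0.13 after the neighbours' median was taken off. Of the members, 57 of 78 lay below their neighbours in set 1, as did 3583 of the 7160 other genes and 119 of the 195 with at least 500 CPM. In sets 2 to 4 it was 25, 14 and 54 members, 3590, 3570 and 3571 other genes, and 71, 101 and 108 of the 195. RPS24 lay at -0.29 and its neighbours at -0.29, RPL7 at 0.43 and 0.35. RPS28 and RPS27 lay farther from their neighbours, at -0.51 against -0.13 and at -0.34 against -0.02.

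**Figure D2:**
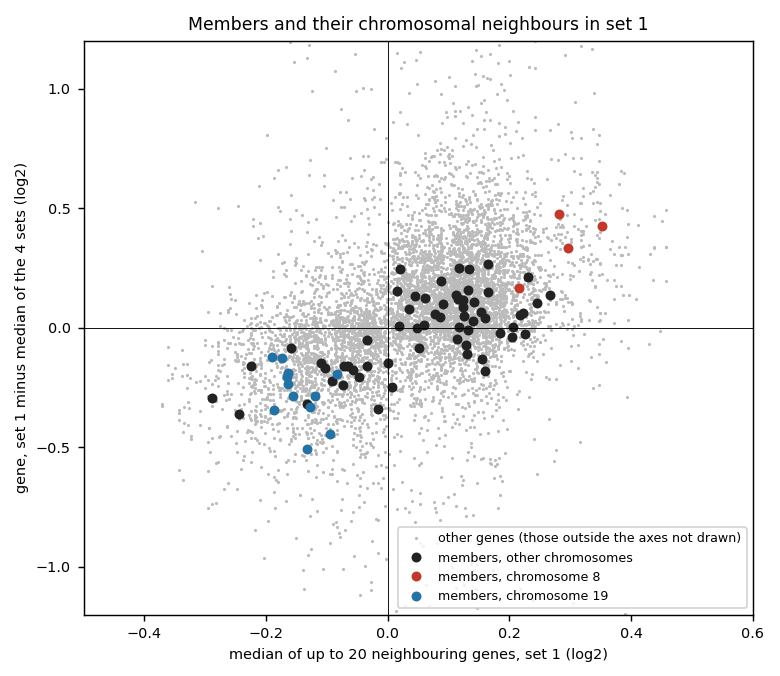
Each point is a gene in set 1, with the median of its neighbours on the horizontal axis and its own value on the vertical axis, both as log2 differences from the median of the 4 sets. The 78 members (dark, red for chromosome 8, blue for chromosome 19) follow their neighbours (r = 0.77), with 57 of them below the diagonal, and other genes (grey, r = 0.30) scatter more widely.

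Within some sets, cells also fell into ranges by the share of member UMIs from chromosomes 8, 11 or 19. Cells were counted by range for these chromosomes only. In each cell, the UMIs of the 12 chromosome 19 members were taken as a percentage of all member UMIs. Set 1 had its main peak between 14.5% and 15% and a very small one between 10.5% and 11%, with 17 cells (0.80%). Set 2 had 2 peaks, between 14.5% and 15% and between 18% and 18.5%, and 1.80% of its cells lay between 16.5% and 17%. Sets 3 and 4 peaked between 18.5% and 19%, and set 4 had a small second peak between 15% and 15.5%. With a line drawn at 17% after the values were seen, 98.3%, 55.3%, 6.96% and 14.4% of cells lay below it, and 79, 285, 402 and 282 cells lay within 5% of the line itself. The other genes of chromosome 19 moved along: in set 2 they took up a median of 6.09% of a cell's UMIs outside the members above the line and 5.25% below it.

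For the 4 chromosome 8 members, set 1 had peaks between 4.25% and 4.5% and between 5.5% and 5.75% of member UMIs. Set 2 had a single peak between 3.75% and 4%. Sets 3 and 4 had their main peak between 3.5% and 3.75%. Above it, set 3 had a smaller second peak between 4.25% and 4.5% and set 4 had a shoulder. At or above a line at 4.5% lay 70.8%, 8.66%, 22.9% and 16.9% of cells. In set 1 the other chromosome 8 genes were taken as a share of a cell's UMIs outside the members. Their median was 3.08% in cells at or above the line and 2.30% in cells below it. In set 1 the cells at or above the line had a median of 32285 UMIs and those below it 37596.5. Their mitochondrial shares were 5.45% and 5.33%, their total ribosomal shares 22.9% and 22.5%, and 40.0% and 31.3% of them were assigned G1. The part of depth and phase in these ranges was not tested.

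**Figure D3:**
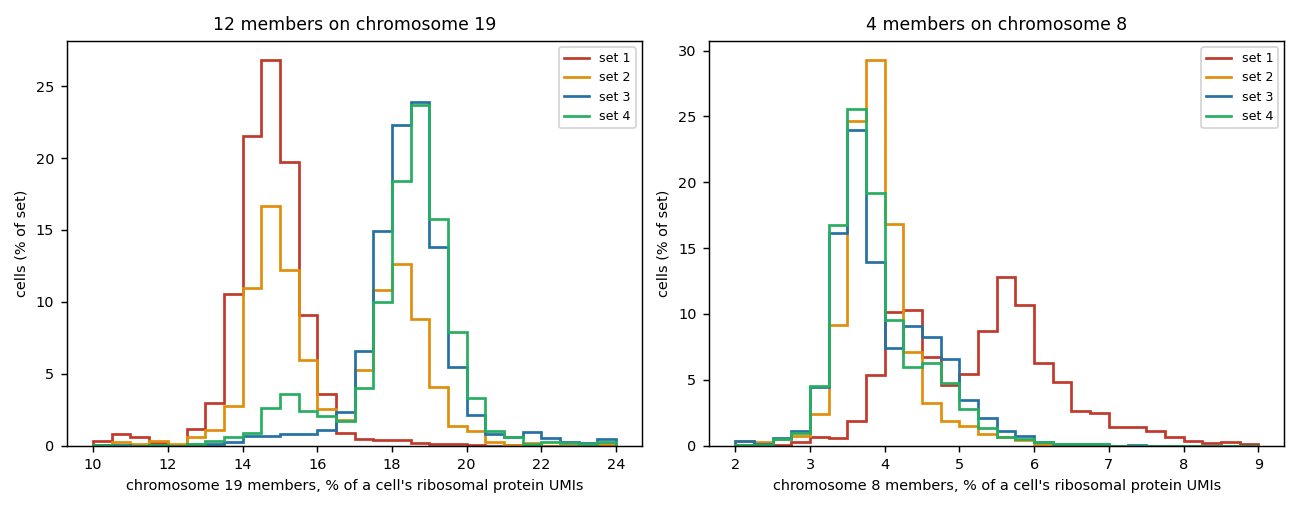
Histograms over cells of the share of a cell's ribosomal protein UMIs that came from the 12 chromosome 19 members (left) and the 4 chromosome 8 members (right), as a percentage of each set's cells, with cells beyond the axis counted in the end bins. Set 2 has 2 peaks on the left, near 14.5% and 18%. On the right, set 1 has 2 peaks, near 4.25% and 5.5%, and set 3 has a smaller second peak near 4.25%.

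When the cells were instead ranged by the other genes of the chromosome, so that no member decided its own range, the members still differed, though in sets 1 and 3 the chromosome 19 members differed little more than members elsewhere. In set 2, other chromosome 19 genes made up at least 5.6% of the UMIs outside the members in 890 cells. These cells had all 12 members at a higher CPM than the other 889 cells, by 1.13-fold (RPS9) to 1.32-fold (RPL13A), median 1.28-fold. Members on other chromosomes had a median of 1.05-fold between the same cells. In sets 1, 3 and 4 the chromosome 19 members had a median of 1.12-, 1.199- and 1.248-fold, against 1.07-, 1.12- and 1.08-fold for members elsewhere. In set 3 members elsewhere reached from 0.75- to 1.59-fold. In set 1, other chromosome 8 genes made up at least 2.6% of the UMIs outside the members in 1302 cells. These cells had RPL7 1.53-fold, RPL8 1.41-fold, RPS20 1.37-fold and RPL30 1.37-fold above the 819 cells below that line. Members elsewhere had a median of 1.04-fold. In sets 2 to 4 the chromosome 8 members had a median of 1.252-, 1.38- and 1.35-fold, against 0.96-, 1.07- and 1.06-fold for members elsewhere, and in set 2 only 65 cells lay above that line. In sets 3 and 4 the cells of the lower chromosome 19 range had fewer UMIs (19147 and 24740 at the median, beside 35064 and 35029.5 in the upper range), and the part of depth in the ranges was not tested.

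Across cells, the chromosome 8 members' share of the pool was set against the other chromosome 8 genes' share of the UMIs outside the members. The r was 0.83, 0.62, 0.82 and 0.77 (1779 to 2140 cells, which share a library and its depth). For chromosome 19 it was 0.42, 0.66, 0.56 and 0.56. Chromosome 19 was not alone at that level. The r was 0.60, 0.55, 0.52 and 0.47 for chromosome 17 and 0.54, 0.62, 0.53 and 0.47 for chromosome X. Chromosomes 2, 3 and 5 had similar values, and chromosomes 6, 9, 12 and 16 lower ones. It was 0.06, -0.07, -0.28 and -0.22 for chromosome 1 and 0.04, 0.16, 0.03 and 0.0042 for chromosome 15, so not every chromosome showed such a relation. The 5 chromosome 11 members had peaks in set 1 between 5.5% and 5.75% and between 6.75% and 7% of member UMIs, and their share varied between cells by 12.9% there beyond counting noise, beside 7.40%, 7.21% and 6.85% in sets 2 to 4. By the same measure the share of the 3 chromosome 4 members varied by 18.1%, 13.7%, 15.4% and 14.8%. In each set this was more than for chromosomes 8, 11 and 19. In set 1 cells with a high chromosome 8 share tended to have a low chromosome 11 share (r = -0.35 over 2121 cells for the members and -0.45 for the other genes of both chromosomes). In sets 2 to 4 the r was -0.03, -0.14 and -0.09 for the members and -0.24, -0.14 and -0.13 for the other genes. Shares of the same total are not independent. The members' r was also negative in every set between chromosomes 8 and 19 and between chromosomes 11 and 19.

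The paralogue's share of its pair spanned 25% over the sets for RPS27L and RPL39L and came close to it for RPL22L1. In cells assigned G1, RPS27L no longer spanned 25% (33.8%, 29.1%, 28.1% and 30.3%), RPL22L1 did (71.6%, 57.8%, 56.3% and 57.4%), and RPL39L still did. RPL22L1, which can stand in for RPL22, was the more abundant of its pair everywhere. It made up 72.8% of the pair's UMIs in set 1 (72.5% to 73.0%) and 60.2%, 58.8% and 60.2% in sets 2 to 4. RPL22L1 stood at 1244, 1039, 835 and 870.2 CPM while RPL22 was lowest in set 1, so both genes contributed to the higher share there. RPS27L made up 31.4% of its pair in set 1 (31.2% to 31.7%) and 24.9%, 26.0% and 26.9% in sets 2 to 4. The level of RPS27L itself was nearly the same in all sets (577, 593, 570 and 576 CPM), and the share moved with RPS27, whose sets were 1.42-fold apart.

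Of the other pairs, RPL39L took 7.02%, 5.55%, 5.59% and 6.57% of the UMIs shared with RPL39. RPL39L stood at 188, 176, 167 and 187 CPM and RPL39 at 2495, 2994, 2810 and 2654 CPM. RPL36AL outnumbered RPL36A in every set, with 69.0%, 71.7%, 66.7% and 70.0% of the pair. RPL26L1 took 16.5%, 15.8%, 13.5% and 16.6% beside RPL26 (855, 821, 750 and 650 CPM), which was 1.32-fold higher in set 1 than in set 4. RPL7L1, which works in ribosome assembly in the nucleolus, took 1.59%, 1.67%, 1.68% and 1.90% beside RPL7. RPL3L was at most 0.000669% of its pair. RPL22L1, RPL36AL, RPL26L1 and RPL7L1 are not members by the rule and appear only for their pairs.

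**Figure D4:**
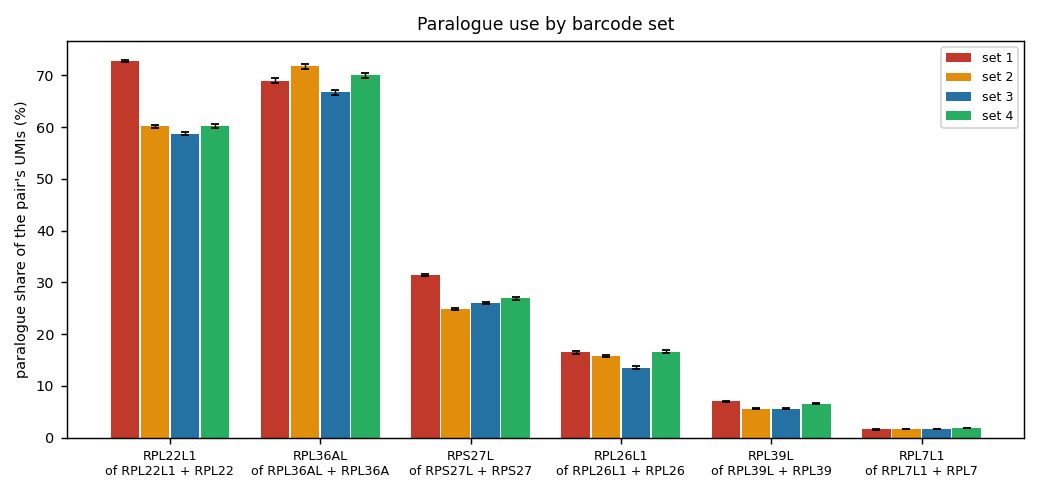
Share of a pair's UMIs that came from the paralogue, for 6 pairs, with 1 bar per barcode set and exact 95% binomial intervals. RPL22L1 reached 72.8% in set 1 and 58.8% to 60.2% in sets 2 to 4, and RPS27L 31.4% in set 1 and 24.9% to 26.9% in the others.

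From cell to cell the members varied less than other genes. Variation beyond counting noise was measured as the coefficient of variation that remains after Poisson noise is taken off, within each set, with counts scaled by the cell's total. Its median over the sets was 16.5% over the 78 members, 27.4% over all genes tested and 21.9% over other genes with at least 500 CPM. It passed 25% for 5 members (6.41%), against 59.8% of all genes. This count was 2 with counts scaled by the members' own total, 10 in G1 cells and 13 in thinned cells. The share of all genes under these settings is not given. At 500 CPM or more in a set, 5 of 72, 2 of 74, 4 of 73 and 4 of 73 members passed 25% in sets 1 to 4, against 37.5%, 25.2%, 29.5% and 26.9% of all genes. The lowest were RPS9 (11.6%), RPL19 (12.5%), RPL35 (12.7%), RPL10A (13.04%) and RPL15 (13.3%). The highest were RPS27L (40.8%), RPL39L (40.2%), RPL31 (31.1%), RPL7 (27.2%) and RPL37 (25.6%).

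The first of these, RPS27L, varied by 40.1%, 38.6%, 46.2% and 41.5% in sets 1 to 4, and RPL39L by 46.8%, 40.2%, 40.2% and 36.4%. Both also stood apart from the module in another way. The typical member's count across cells, thinned to 10000 UMIs each, went with the summed count of the other members (median r 0.44, 0.43, 0.46 and 0.44), most of all for RPL13A (0.66 to 0.74) and RPS18 (0.64 to 0.69). Over 2181 other genes with at least 50 CPM in every set, the median r with the summed members was -0.06, -0.06, -0.07 and -0.07. RPL39L had an r of -0.10 to -0.06 and RPS27L of -0.07 to -0.04, so both lay near the typical other gene. Of the 78 members that reached 10 CPM, RPS3A was the only other with a value below 0 in any set, at -0.04 in set 1. The share of RPS27L in its pair had a variance between cells 3.88 to 4.31 times that of binomial sampling. For RPL22L1 it was 2.72 to 3.85 times, for RPL39L 2.11 to 2.71 times and for RPL36AL 1.03 to 1.16 times. This ratio also depends on the pair's UMIs per cell, so the pairs are not ranked by it. The median cell had 13 to 20 UMIs of the RPL36AL pair, 45 to 68 of the RPL22L1 pair and 60 to 94 of the RPS27L pair. The RPL39L pair had more than these in every set.

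**Figure D5:**
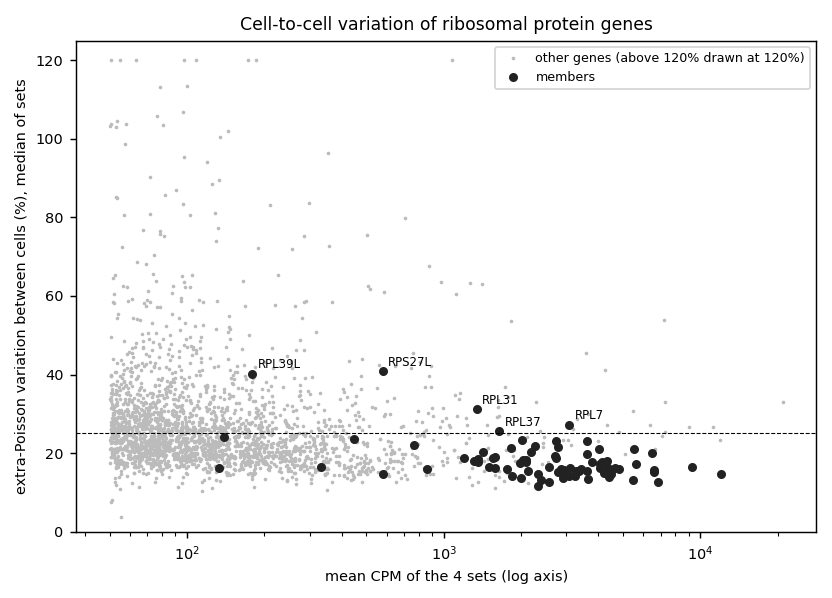
Variation between cells beyond Poisson noise (median of the 4 sets) against mean CPM (log axis) for the members that reached 10 CPM (black) and other genes with a mean of at least 50 CPM (grey). Of the members, 5 lie above the dashed line at 25%, led by RPS27L at 40.8% and RPL39L at 40.2%.

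The members' share of UMIs was highest in cells assigned G1 by their cell cycle genes. With each cell thinned to 10000 UMIs, the median share was 23.7% in G1, 22.4% in S and 22.1% in G2M in set 1. It was 23.5%, 22.8% and 22.7% in set 2, 24.6%, 23.5% and 23.1% in set 3, and 24.1%, 22.8% and 22.8% in set 4. G1 was the highest phase in all 4 sets, while the S and G2M medians were close together. G1 cells also had fewer UMIs (30484 to 38127.5 at the median, beside 33919 to 43988 in the other phases), and the part of depth and of free RNA in these values was not tested. Of the 78 members, 76, 68, 77 and 77 were lower in G2M cells than in G1 cells in sets 1 to 4, beside 44.4%, 44.4%, 44.5% and 42.3% of all genes.

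RPL39L was higher in G2M cells in every set, and in sets 3 and 4 it was the only member that was. In set 1 it stood at 115 CPM in G1 cells, 192 in S and 280.3 in G2M, and in set 2 at 105, 175 and 238. In set 3 it stood at 97.8, 170.2 and 228 CPM and in set 4 at 107, 182 and 237 CPM. G2M cells were thus 2.43-, 2.26-, 2.34- and 2.22-fold above G1 cells, while the median member was at 0.92, 0.95, 0.92 and 0.93 of its G1 level. RPS27L had the lowest ratio of any member in each set, with G2M cells at 0.81, 0.67, 0.74 and 0.73 of G1 cells. It stood at 669.5, 521 and 542 CPM in G1, S and G2M cells of set 1, and at 756, 554 and 507 CPM in those of set 2. The other paralogues stayed near their G1 level, RPL22L1 at 1.01 to 1.12 of it in G2M cells. In cells assigned G1 alone, RPL39L was 4.26%, 3.26%, 3.25% and 3.63% of its pair, against 5.55% to 7.02% in all cells, and RPS27L was 28.1% to 33.8% of its own.

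Few cells had an unusual ribosomal share. Cells under 0.5 times their set's median share numbered 6, 4, 3 and 3, and their median mitochondrial share was 16.1%, 18.3%, 16.9% and 16.9%, beside 5.40% to 7.11% in the bulk of cells. Cells over 1.5 times the median numbered 1, 0, 5 and 6. Over all cells the share had an r with the mitochondrial share of -0.06 to 0.08 and with the logarithm of depth of 0.17 to 0.28.

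Outside the members, genes whose counts went closely with the module across cells included EEF1A1 (r of at least 0.44 in every set), GNB2L1 (0.35), NACA (0.29), TPT1 (0.29), EEF2 (0.27), ZFAS1 (0.26), EEF1B2 (0.22), TOMM7 (0.21) and SLC25A6 (0.21). They were ranked by the lowest r of the 4 sets among genes with at least 50 CPM in every set. EEF1A1 and EEF2 are elongation factors, and GNB2L1 encodes a ribosome-bound scaffold. FAU, which encodes a small-subunit protein under another name, and GNB2L1 were both lowest in set 1, and neither spanned 25%. Of 19 other measured genes on a list of terminal oligopyrimidine mRNAs, 7 spanned 25%. EEF2, on chromosome 19, was alone past 1.5-fold, at 787, 756, 1144 and 954 CPM. Next came EIF3H, PABPC1 and EIF3E, all on chromosome 8 and all highest in set 1, with 369, 260, 291 and 273 CPM for EIF3H. Of 40 measured ribosome biogenesis genes, 19 spanned 25% and 4 spanned 1.5-fold. These were SBDS (116, 94.3, 68.6 and 71.5 CPM), which readies the large subunit for translation, FBL (114, 138, 178 and 173 CPM), the methyltransferase of ribosomal RNA, LYAR and MYC. Over all genes tested, 52.1% spanned 25% and 17.3% spanned 1.5-fold.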

How the data were processed

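The authors deposited UMI counts per gene and cell in 1 table of 19238 genes and 8173 cells. The submitters' processing notes list Cell Ranger 3.0.0 and Seurat 3.0 as tools, and hg19 and mm10 as builds with no role given. Doublets were left in and free RNA was not removed.

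Counts were summed over the cells of each barcode set and scaled to CPM (numpy 2.4.6). Genes that reached 10 CPM in any set were compared with a pseudocount of 1 CPM. Phases came from scanpy 1.11.5 in cells thinned to 10000 UMIs, which left out 1 to 6 cells per set. TMM scaling used edgeR 4.0.16, which was not used for any test. Intervals are exact Poisson or binomial. Span and variation were tested on simulated data. Chromosomes and gene order came from RefSeq (GRCh38.p14), matched by symbol or else by synonym for all 81 members and 97.7% of genes tested, and no gene coordinates were used.

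Members and lists were chosen with earlier results of these data known. Named were the 10 members with the widest span, the 5 highest and 5 lowest in level and in variation, the paralogue pairs, the stalk genes, RPSA, the members nearest the 25% line, up to 4 genes per list and the 10 most similar other genes. Members named by chromosome or phase were chosen after their values were seen. Planned comparisons of lines were not made, because sets are not tied to lines. Some genes that this rule names are not reported here, and counts and medians over the members include them. RPL10L was not analysed here.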

Additional observations from a re-analysis of the deposited data

How the results depend on the processing

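No paired analysis was possible because each set is 1 library, its line is not known and no result comes from a test. The share of UMIs from the members moved beyond counting error under every alternative. Over cells the median share was 22.8%, 22.9%, 23.7% and 23.1% in sets 1 to 4. Without mitochondrially encoded genes in the total, which is smaller by construction, it was 24.3%, 24.9%, 26.1% and 25.2%. In G1 cells it was 24.0%, 24.0%, 25.4% and 25.01%, and in cells with a mitochondrial share from 2% to 15% it was 22.9965%, 23.2%, 24.3% and 23.5%. Set 3 was the highest in each. The count of 5 members with variation above 25% became 2 when counts were scaled by the members' own total, 10 in G1 cells and 13 in thinned cells. The share of all genes under these settings is not given, and the cause was not tested. The count of members past 25% was 22 to 26 under 8 alternatives (23 reported), and with a pseudocount of 10 CPM the share of all genes was 34.5%. As shares of member UMIs the count was 21 to 25 (21 reported). With TMM scaling, all genes together shifted by -0.06 (log2, median) in set 1. Alternatives for chromosomes were added after seeing the data: the set 1 median was 0.30 to 0.40 for the chromosome 8 members and -0.33 to -0.26 for the chromosome 19 members. The number of pairs whose paralogue share spanned 25% was 2 in all cells (RPS27L and RPL39L) and in G1 cells (RPL22L1 and RPL39L). Medians by phase at the deposited depth stayed within their intervals. Total depth was not a limit for most members, but RPL3L had too few UMIs to compare.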
